A study of Mus musculus with 9 samples.

Results

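The 10 genes described here serve the MHC class I pathway of antigen presentation and were chosen by name: H2-K1 and H2-D1 (heavy chains), B2m (light chain), Tap1, Tap2 and Tapbp (peptide transport and loading), Psmb8, Psmb9 and Psmb10 (catalytic subunits of the immunoproteasome) and Nlrc5 (a regulator of class I genes). A probe set, the group of probes on the array that reads 1 transcript, was used when it was annotated to exactly 1 of these symbols. This gave 27 probe sets of 45101, and all 10 genes were among the 10937 tested of 18193 measured. Of the 27 probe sets 19 reached a log2 value of 4 on at least 3 of the 9 arrays, and the other 8 were dim. A further 3 probe sets named several genes including 1 of these 10 and were not used.

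The samples were cells of the thymus of female C57BL/6J mice aged 6 to 8 weeks, from which cells carrying CD45, a surface protein of blood cells, had been removed with magnetic beads. Mice were untreated, or were taken at day 4 or day 7 after SL-TBI (sublethal total body irradiation in the field's usage) of 550 cGy from a cesium source, with no hematopoietic rescue. Each of the 3 groups had 3 Affymetrix arrays, every sample pooled several mice, and the pooled cells are called ECs in the labels without an explanation. The labels do not say whether replicates were separate pools, so p-values measure the spread between these samples, which may be technical.

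MHC class I molecules show peptides from inside the cell to CD8 T cells. Peptides are cut by the proteasome, carried into the endoplasmic reticulum by a pump made of Tap1 and Tap2, and loaded with the help of tapasin, the product of Tapbp, onto a heavy chain paired with beta-2 microglobulin. In the immunoproteasome, Psmb9, Psmb10 and Psmb8 take the places of the constitutive catalytic subunits Psmb6, Psmb7 and Psmb5. In the thymus, cortical epithelial cells present peptides made with another form, the thymoproteasome, whose catalytic subunit Psmb11 takes the Psmb5 place, and these peptides select CD8 T cells. Interferon-gamma raises the class I genes in many cell types, and Nlrc5 acts at class I promoters through a module that includes a cAMP response element (CRE) half-site and a CCAAT box.

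The start regions of 4 of the genes are shown because they carry, or lack, the elements named for class I regulation, and because Tap1 shares its region with Psmb9. RefSeq windows (build GRCm38.p6, 250 bases before to 50 bases after the start) were available for 8 of the 10 genes, and Tap2 and Nlrc5 had no entry. They lie at chr17:34000298-34000597 on the minus strand for H2-K1 (the first of its 2 windows), at chr17:35262844-35263143 on the plus strand for H2-D1, at chr2:122147437-122147736 on the plus strand for B2m and at chr17:34187306-34187605 on the plus strand for Tap1. Capitals mark matches, on either strand, to 4 motifs that were chosen with the sequences in view: an IRF core (AANNGAAA), a short form of the NF-kappaB motif (GGNNTTNCC), the CRE half-site (TGACG) and the CCAAT box (CCAAT). Matches of different motifs did not overlap in these 4 windows.
H2-K1: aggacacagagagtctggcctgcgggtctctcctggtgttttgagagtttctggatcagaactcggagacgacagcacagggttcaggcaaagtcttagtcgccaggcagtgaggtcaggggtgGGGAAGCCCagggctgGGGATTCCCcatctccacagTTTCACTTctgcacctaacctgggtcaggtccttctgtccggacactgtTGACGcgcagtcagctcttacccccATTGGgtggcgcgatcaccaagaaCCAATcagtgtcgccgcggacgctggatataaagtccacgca
H2-D1: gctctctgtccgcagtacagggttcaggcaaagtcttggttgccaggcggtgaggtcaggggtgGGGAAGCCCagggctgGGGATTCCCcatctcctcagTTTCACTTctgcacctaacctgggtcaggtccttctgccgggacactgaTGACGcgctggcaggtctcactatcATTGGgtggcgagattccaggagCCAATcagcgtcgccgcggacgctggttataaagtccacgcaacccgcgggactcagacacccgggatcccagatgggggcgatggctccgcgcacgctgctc
B2m: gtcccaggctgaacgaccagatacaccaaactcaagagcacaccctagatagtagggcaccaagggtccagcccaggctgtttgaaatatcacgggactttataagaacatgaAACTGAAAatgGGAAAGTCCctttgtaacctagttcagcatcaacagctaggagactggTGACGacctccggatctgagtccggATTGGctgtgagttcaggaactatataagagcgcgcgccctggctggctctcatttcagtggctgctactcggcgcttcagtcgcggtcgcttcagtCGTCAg
Tap1: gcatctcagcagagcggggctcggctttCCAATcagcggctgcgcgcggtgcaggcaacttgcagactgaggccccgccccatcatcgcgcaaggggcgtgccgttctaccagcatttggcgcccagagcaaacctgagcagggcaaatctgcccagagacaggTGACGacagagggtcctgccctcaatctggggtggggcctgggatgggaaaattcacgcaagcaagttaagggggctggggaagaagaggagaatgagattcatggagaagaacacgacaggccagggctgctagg

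The 3 windows of the genes that form the class I molecule, H2-K1, H2-D1 and B2m, each held all 4 motifs. Each also had TGACG followed, after 10 to 30 bases, by ATTGG, the CCAAT box read on the other strand. That spaced pair, counted on either strand, was found in 0.743% of all 32851 windows. Other orders and orientations of the pair were not counted. The shares of the single motifs were 23.9% for the IRF core, 16% for the NF-kappaB form, 20.8% for the CRE half-site and 37.4% for the CCAAT box. Over the 8 genes, the IRF core and the NF-kappaB form were each in 3 windows, the CRE half-site in 5 and the CCAAT box in 6. A GAS motif (TTCNNNGAA), present in 8.3% of all windows, was in the Psmb8 window. The H2-K1 and H2-D1 windows were identical at 211 of 239 aligned bases (88.3%), and the windows of Tap1 and Psmb9, which run in opposite directions from starts 225 bases apart, shared 275 bases. Psmb9, Tap1, Psmb8 and Tap2 are consecutive genes on chromosome 17 between H2-DMb1 and H2-Ob. In all, 7 of the 10 genes are on chromosome 17, Psmb10 and Nlrc5 on chromosome 8 and B2m on chromosome 2. A match is a description of the letters and not a measured binding site.

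The arrays differed between groups in more than these genes, and those differences stand beside every result below. The mean of 10 pan-leukocyte genes per array was 9.32 to 9.57 in untreated samples, 5.44 to 5.55 at day 4 and 6.65 to 6.86 at day 7 (log2), and that of 13 thymocyte genes was 9.34 to 9.71, 3.34 to 3.63 and 6.84 to 6.98. Untreated samples labelled non-hematopoietic thus held transcripts of blood cells, which also use class I genes. Ptprc, the gene of CD45, read 12.25, 11.96 and 12.45 on the untreated arrays, 4.18, 4.52 and 5.22 at day 4 and 9.63, 9.26 and 9.64 at day 7. The cortical epithelium list lay at 10.31 to 10.43, 10.87 to 11.01 and 10.98 to 11.05 and the fibroblast list at 10.14 to 10.63, 11.19 to 11.71 and 10.80 to 11.15 in the same order, while the endothelium list lay at 4.12 to 5.73, 5.09 to 5.74 and 7.11 to 7.21. Of the macrophage list, Adgre1, Cd68, Fcgr1, C1qa and C1qc were below the level of 4 on all arrays. So were Itgax, Flt3, Xcr1, Siglech and Batf3 of the dendritic cell list. Both lists also held readable genes, 5 tested of the macrophage list and 4 of the dendritic cell list. Among them Lyz2 had means of 9.84, 9.02 and 7.76 and Irf8 of 9.47, 9.41 and 9.27 in the same order. Of the 5 macrophage genes 1 rose and 3 fell at each day against untreated samples. Untreated replicate 3 stood apart from the other untreated arrays on 2 lists, with an endothelium mean of 5.73 against 4.12 and 4.32 and a medullary epithelium mean of 6.08 against 7.00 and 7.03, and it was the lowest untreated array for each of the 10 genes except Tap2 and Psmb9. Without it, 3 of the 10 genes were called at day 4 and 4 at day 7 against untreated samples, as H2-K1 at day 4 and Tapbp at day 7 missed the threshold. The 3-prime minus 5-prime value of the Actb control probe sets, which grows as RNA is shortened, was 2.16 to 2.45, 3.01 to 3.32 and 2.30 to 2.71. In such bulk samples, fewer cells of a type and less RNA per cell cannot be told apart, and the part of these differences in each result was not tested.

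Values are deposited log2 levels, differences between group means are in log2 units, with a standard error (SE), and a gene is called where limma's p, adjusted over all 10937 genes by Benjamini-Hochberg, is under 0.05. Of the calls, 66.1% were higher at day 4 than in untreated samples, 59.3% were higher at day 7 than in untreated samples, and 35.8% were higher at day 7 than at day 4. Centring each array on another reference adds 1 constant to every gene's difference. It takes a separate value off each array, so it also changes the spread within groups and the SE. The epithelium list means ran from 9.13 to 9.80 on the untreated arrays alone. A call can therefore be lost under a centring although the difference is not smaller. Centring on the tested genes moved the 3 differences by -0.11, -0.04 and 0.07, centring on the epithelium list by -0.22, 0.15 and 0.37, and centring on the mean of the epithelium, fibroblast, endothelium and pericyte lists by -0.62, -0.97 and -0.35. The shares of higher calls were then 50.2%, 71.6% and 81.6% on the epithelium list and 20.3%, 4.22% and 8.81% on the 4 stromal lists. For day 7 against day 4 they were 47.5% on the tested genes and 46% after quantile normalization. Any rise smaller than the stromal shift of its comparison therefore turns negative under that centring, and most rises below do.

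At day 4, 4 of the 10 genes rose against untreated samples: both class I heavy chain genes, Tap1 and Psmb9. The other 6 were not called, and 0 fell by limma, also at an unadjusted p under 0.05 (n = 3 arrays each). Among all genes tested 63.2% were called in this comparison, 41.8% higher and 21.4% lower, so a count of 4 of 10 higher was near the background. The day 4 and untreated values did not overlap for the same 4 genes, against 67.7% of all genes (44.7% higher and 22.9% lower). The median difference of the 10 genes was 0.17, against 0.20 for all genes.

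At day 7, 3 genes rose against untreated samples (Tapbp, Psmb9 and Psmb10) and 2 fell (Psmb8 and Nlrc5), with a median of -0.06 against 0.09 for all genes. The share called among all genes was 54.1%, with 32.1% higher and 22% lower, again near the 5 of 10 counted here. The groups did not overlap for 6 of the 10 genes, higher in 3 and lower in 3, against 62.4% of all genes (37.5% and 24.9%). Both comparisons use the same untreated arrays. Set directly against day 4, day 7 had 1 gene higher (Psmb10) and 5 lower (H2-K1, H2-D1, Tap1, Psmb8 and Nlrc5), with a median of -0.26 against -0.10 for all genes. Here 27.3% of all genes were called, 9.78% higher and 17.6% lower. The groups did not overlap for 8 of the 10 genes, 2 higher and 6 lower, against 51.7% of all genes (17.9% and 33.8%).

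**Figure D1:**
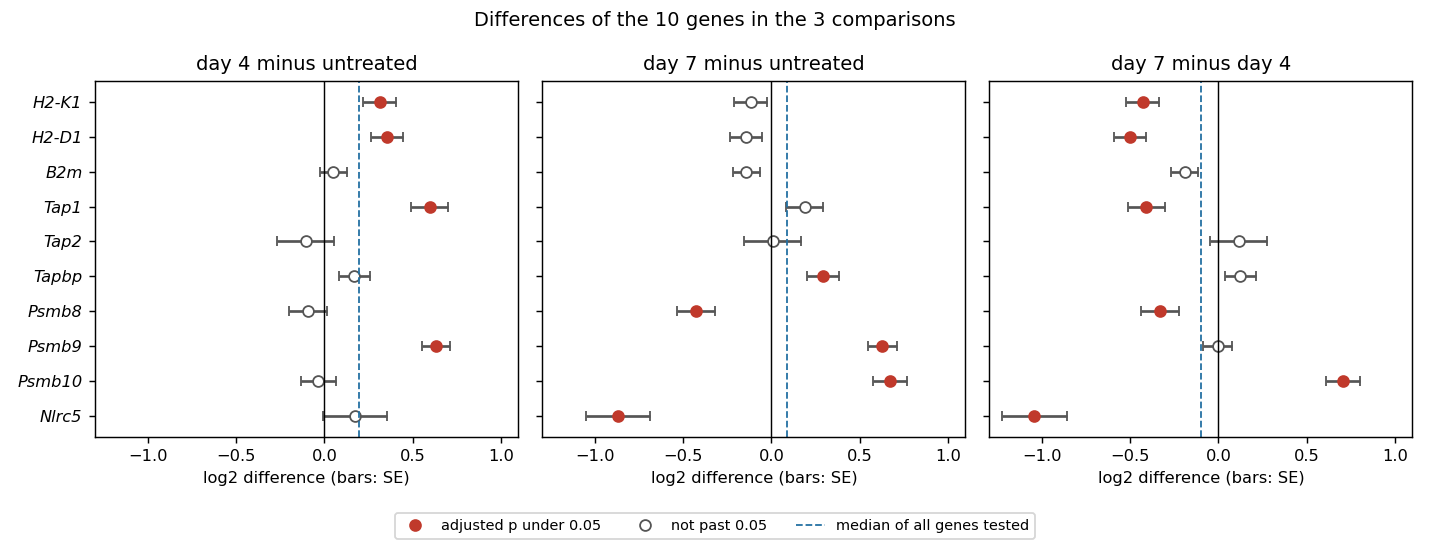
Log2 difference of each of the 10 genes (points, bars SE, n = 3 arrays per group) for day 4 minus untreated, day 7 minus untreated and day 7 minus day 4, with filled points for an adjusted p under 0.05 and a dashed line at the median of all genes tested. The genes spread over both sides of 0, from -1.04 for Nlrc5 to 0.71 for Psmb10 at day 7 against day 4, and with arrays centred on the 4 stromal lists every point would move left by 0.62, 0.97 and 0.35 in the 3 panels.

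The heavy chain genes moved alike. H2-K1, which encodes a classical heavy chain, read 13.02, 13.15 and 12.91 on the untreated arrays, 13.33, 13.32 and 13.36 at day 4 and 13.01, 12.92 and 12.79 at day 7. H2-D1, the gene of the other classical heavy chain of this strain, read 13.12, 13.28 and 13.02 in untreated samples, 13.52, 13.51 and 13.47 at day 4 and 13.03, 13.04 and 12.92 at day 7. For both, the day 4 arrays lay above every other array, and the day 7 and untreated arrays overlapped. At day 4 H2-K1 rose 1.24-fold (difference 0.31, SE 0.10, adjusted p 0.0182) and H2-D1 1.28-fold (0.36, SE 0.09, adjusted p 0.00783), while centring on the 4 stromal lists turned these to -0.31 and -0.26. Day 7 was lower than day 4 by differences of -0.43 (adjusted p 0.0117) for H2-K1 and -0.50 (adjusted p 0.00505) for H2-D1, and against untreated samples neither passed the test at day 7 (-0.12, adjusted p 0.32, and -0.15, adjusted p 0.202). Centred on the epithelium list, the day 4 rises were 0.09 and 0.13 and no longer passed, and the day 7 to day 4 differences were -0.06 and -0.13 and did not pass either. The H2-K1 rise also missed the threshold without untreated replicate 3 (0.25, adjusted p 0.0532).

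Most of these readings came from probe sets of the _x_at class, whose probes can also match other transcripts. H2-K1 and H2-D1, related genes of 1 family, may therefore share signal. All 4 readable H2-K1 probe sets were of this class. Their day 4 differences ran from 0.24 to 0.70, and 3 of the 4 were called higher when probe sets were tested one by one, against 36.5% higher and 25.5% lower among all 20298 probe sets. Of 9 H2-D1 probe sets 5 were readable. The 4 of the _x_at class rose at day 4 by 0.36 to 0.51. The only readable set outside that class, 1426324_at, read 8.77, 8.95 and 8.82 at day 4 against 8.94, 9.12 and 9.13 in untreated samples, a difference of -0.22 (SE 0.11) that did not pass (adjusted p 0.0981). At day 7 against untreated samples, 0 of these 9 probe sets were called by limma, also at an unadjusted p under 0.05, where 28.3% of all probe sets were higher and 25.2% lower. At day 7 against day 4, 2 sets of H2-K1 and 3 of H2-D1 were lower, against 13.4% lower and 9.53% higher among all probe sets, while 1426324_at differed by 0.03 (adjusted p 0.872).

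**Figure D2:**
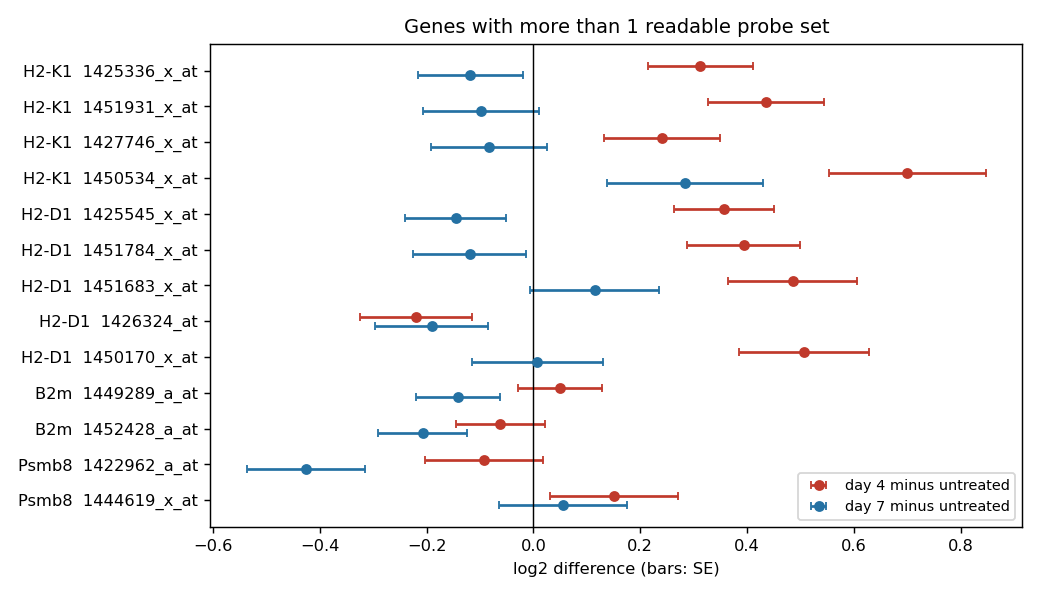
Log2 difference (points, bars SE, n = 3 arrays per group) of every readable probe set of H2-K1, H2-D1, B2m and Psmb8, for day 4 minus untreated and day 7 minus untreated. The _x_at sets of H2-K1 and H2-D1 lie between 0.24 and 0.70 at day 4 with 1426324_at at -0.22, values that centring on the 4 stromal lists would lower by 0.62.

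B2m, the light chain common to class I molecules, read 14.79, 14.89 and 14.77 on the untreated arrays, 14.91, 14.84 and 14.85 at day 4 and 14.68, 14.67 and 14.67 at day 7. The day 7 arrays lay below all others, yet neither the difference from untreated samples (-0.14, SE 0.08, adjusted p 0.142) nor that from day 4 (-0.19, SE 0.08, adjusted p 0.0898) passed the test. At day 4 the difference was 0.05 (SE 0.08, adjusted p 0.585). Several alternatives that changed the variance model or the genes tested did call the day 7 differences, among them an intensity trend in the variance (adjusted p 0.0322 against untreated samples and 0.0172 against day 4).

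Of the 2 chains of the peptide pump, Tap1 rose at day 4 and Tap2 was not called in any comparison. Tap1 read 8.95, 8.86 and 8.63 on the untreated arrays, 9.42, 9.42 and 9.39 at day 4 and 9.09, 9.04 and 8.88 at day 7. All day 4 arrays were above all others, and day 7 overlapped untreated. The rise at day 4 was 1.51-fold (difference 0.60, SE 0.10, adjusted p 0.000993), and it was 0.38 (adjusted p 0.12) with arrays centred on the epithelium list and -0.02 on the 4 stromal lists. The other 3 probe sets of Tap1 lay at or near the lowest value of the table on all arrays. With all 4 sets averaged, the day 4 difference was 0.15 (adjusted p 0.0495) and that of day 7 against day 4 was -0.10 (adjusted p 0.228), no longer called. At day 7 Tap1 differed from untreated samples by 0.19 (adjusted p 0.155) and was lower than at day 4 (-0.41, adjusted p 0.0204), a call that was lost when day 4 replicate 1, day 4 replicate 2, day 7 replicate 2 or day 7 replicate 3 was left out (adjusted p 0.0545 to 0.0712) and with arrays centred on the epithelium list (-0.04, adjusted p 0.904). Tap2, the partner of Tap1, read 8.79, 8.23 and 8.55 in untreated samples, 8.59, 8.21 and 8.45 at day 4 and 8.64, 8.35 and 8.62 at day 7. Its groups overlapped throughout, with differences of -0.11, 0.01 and 0.11 (adjusted p 0.588, 0.972 and 0.631), and the spread of its untreated arrays (SD 0.28) was larger than any of them. Whether Tap1 and Tap2 differed from each other in their change was not tested.

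Tapbp, which encodes tapasin, read 11.31, 11.50 and 11.29 on the untreated arrays, 11.57, 11.45 and 11.60 at day 4 and 11.69, 11.68 and 11.62 at day 7. Only the day 7 arrays cleared the untreated ones. The rise at day 7 was 1.23-fold (difference 0.29, SE 0.09, adjusted p 0.0215), but -0.68 with arrays centred on the 4 stromal lists. On the epithelium list it was 0.44 and did not pass (adjusted p 0.0776), and it missed the threshold without untreated replicate 1, untreated replicate 3, day 7 replicate 1 or day 7 replicate 2 (adjusted p 0.0577 to 0.0708). At day 4 the difference was 0.17 (adjusted p 0.126), and day 7 differed from day 4 by 0.12 (adjusted p 0.331).

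**Figure D3:**
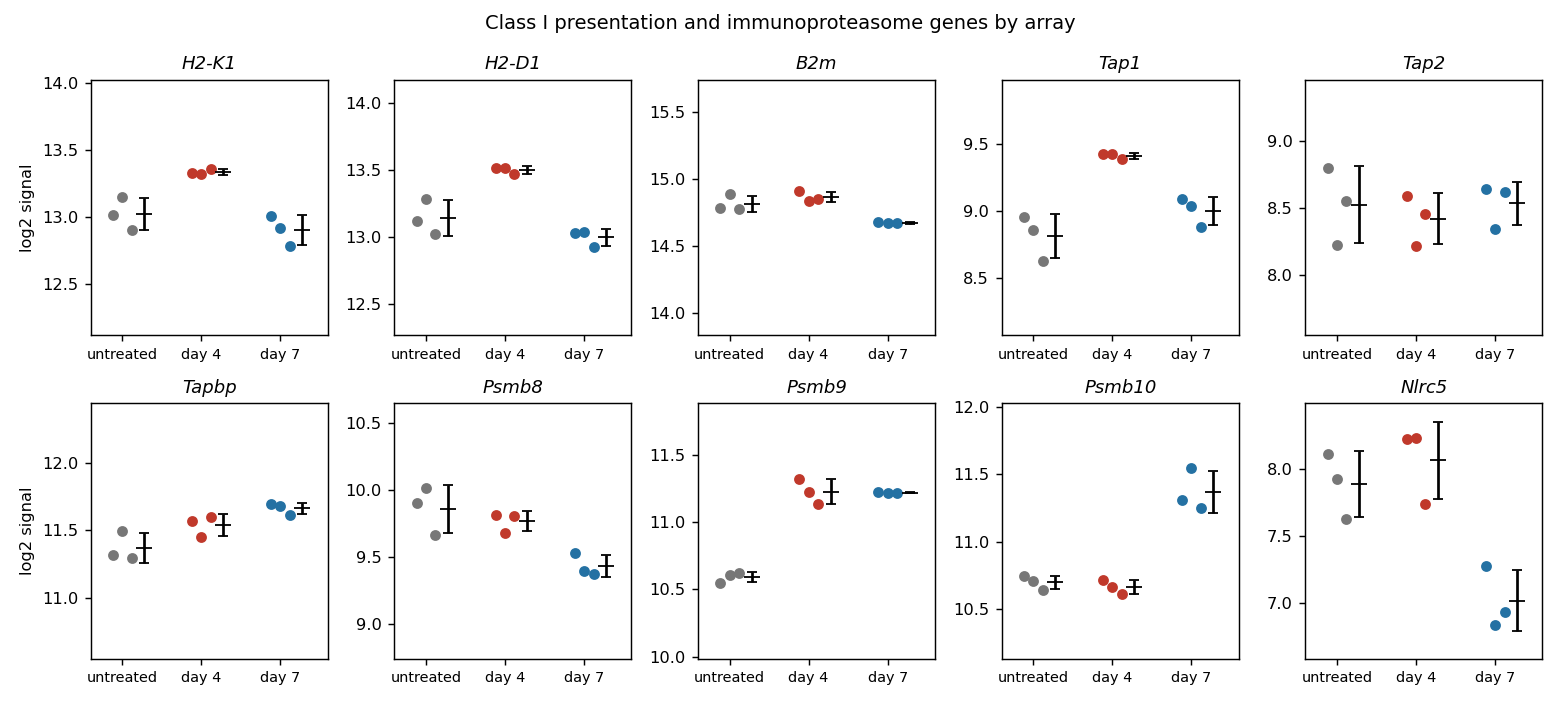
Log2 signal of the 10 genes on each of the 9 arrays (points) with the mean and SD of each group (n = 3) beside them, every panel spanning the same log2 range around its own centre. H2-K1, H2-D1 and Tap1 peak at day 4, Psmb9 is higher at both days, Psmb10 at day 7 alone, and Nlrc5 and Psmb8 are lowest at day 7. Centring the arrays on the 4 stromal lists turns the rises of H2-K1, H2-D1 and Tap1 at day 4 and those of Tapbp, Psmb9 and Psmb10 at day 7.

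The 3 immunoproteasome subunits followed 3 courses. Psmb9 read 10.55, 10.60 and 10.62 on the untreated arrays, 11.32, 11.22 and 11.14 at day 4 and 11.22 on each of the 3 arrays at day 7. Its day 4 and day 7 arrays were all above the untreated arrays and overlapped each other. It rose 1.55-fold at both times (0.63, SE 0.08, adjusted p 0.000159 at day 4, and 0.63, SE 0.08, adjusted p 0.000301 at day 7), with differences of 0.02 and -0.34 on the 4 stromal lists, and day 7 differed from day 4 by -0.01 (adjusted p 0.968). On the epithelium list the day 4 rise was 0.41 and did not pass (adjusted p 0.11), while that at day 7 was 0.78 and passed (adjusted p 0.00551).

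Psmb10 read 10.74, 10.71 and 10.64 on the untreated arrays, 10.71, 10.66 and 10.61 at day 4 and 11.31, 11.55 and 11.25 at day 7. The untreated and day 4 arrays overlapped, and the 3 day 7 arrays stood above both. At day 7 it rose 1.59-fold against untreated samples (0.67, SE 0.10, adjusted p 0.000567, and -0.30 with arrays centred on the 4 stromal lists) and 1.63-fold against day 4 (0.71, SE 0.10, adjusted p 0.00149), after a day 4 difference of -0.03 (adjusted p 0.779). The day 7 rise against day 4 kept its direction under all 3 centrings, from 0.35 (adjusted p 0.115) on the 4 stromal lists to 1.08 on the epithelium list.

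Psmb8 read 9.90, 10.01 and 9.66 on the untreated arrays, 9.81, 9.68 and 9.80 at day 4 and 9.53, 9.39 and 9.37 at day 7. Every day 7 array lay below every other array. At day 7 it fell to 0.745 of its untreated level (difference -0.43, SE 0.11, adjusted p 0.00923). Centred on the epithelium list this fall was -0.27 and no longer passed (adjusted p 0.252). At day 4 the difference was -0.09 (adjusted p 0.476). The fall at day 7 against day 4 (-0.33, adjusted p 0.0479) lay at the threshold: it was lost without any 1 of 7 of the 9 arrays, those being untreated replicate 1 and all day 4 and day 7 arrays, and it was 0.04 on the epithelium list. A second readable probe set of Psmb8, 1444619_x_at, with a signal near the lower end of the range, differed by 0.15 at day 4 and 0.05 at day 7 (adjusted p 0.296 and 0.722), and the mean of both sets gave -0.19 at day 7 (adjusted p 0.141).

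The constitutive and thymic subunits give the background for those courses, with values in the order untreated, day 4 and day 7. Psmb6, the constitutive partner of Psmb9, read 10.67, 10.74 and 10.58, then 10.56, 10.62 and 10.52, then 10.86, 10.94 and 10.88. Psmb7, the partner of Psmb10, read 9.23, 9.39 and 9.17, then 8.99, 9.10 and 9.05, then 9.37, 9.46 and 9.29. Psmb5, the partner of Psmb8, read 10.13, 10.14 and 9.94, then 9.98, 9.94 and 9.90, then 10.21, 10.26 and 10.22. In all 3 the day 4 arrays were the lowest on average and the day 7 arrays the highest. Psmb11, the thymoproteasome subunit of cortical epithelium, read 10.88, 10.63 and 11.08 in untreated samples, 11.30, 11.15 and 11.30 at day 4 and 11.60, 11.71 and 11.68 at day 7, 3 groups without overlap.

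Of these 4 genes, 1 rose at day 4 against untreated samples (Psmb11, 0.39, adjusted p 0.0181), 2 rose at day 7 against untreated samples (Psmb11, 0.80, adjusted p 0.000621, and Psmb6, 0.23, adjusted p 0.0368), and all 4 rose at day 7 against day 4, where 9.78% of all genes did (0.29 for Psmb5, 0.33 for Psmb6, 0.33 for Psmb7 and 0.42 for Psmb11, adjusted p 0.0179 to 0.0331). By limma 0 fell at day 4, with 1 (Psmb7) lower at an unadjusted p under 0.05, and 0 fell at day 7 at either threshold. With arrays centred on the 4 stromal lists the rises against untreated samples turned, and those of Psmb5, Psmb6 and Psmb7 at day 7 against day 4, each smaller than that shift of -0.35, turned too. Of the 12 genes tested of the cortical epithelium list, which did not contain Psmb11, 9 rose at day 4 and 9 at day 7. Of all genes 41.8% and 32.1% rose. At day 7 against day 4, 2 genes of the list rose and 3 fell. The part of the list in the rise of Psmb11 was not tested.

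**Figure D4:**
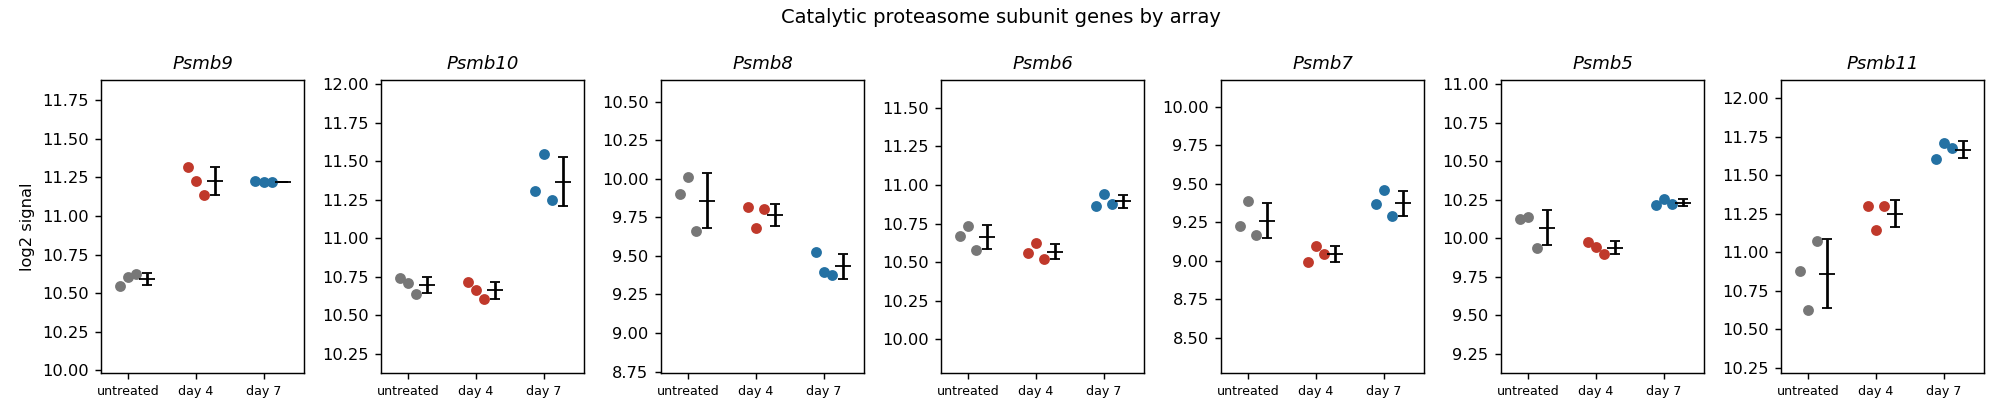
Log2 signal of the 7 catalytic subunit genes on each array (points) with the mean and SD of each group (n = 3), on axes of equal span. Psmb9 is higher at both days and Psmb10 at day 7, while Psmb8 alone among the 7 has its lowest values at day 7. Rises smaller than 0.62 at day 4 or 0.97 at day 7 turn with arrays centred on the 4 stromal lists.

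A difference between 2 genes on the same array is not moved by centring the arrays. Relative to its constitutive partner, Psmb9 was higher on every irradiated array than on every untreated array, as was Psmb10, whereas Psmb8 was lower at day 7. Psmb9 minus Psmb6 was higher by 0.73 at day 4 and by 0.40 at day 7 than in untreated samples. Psmb10 minus Psmb7 was higher by 0.18 and 0.56. At day 4 it was 1.56 to 1.72 against 1.32 to 1.51 in untreated samples. Psmb10 itself then differed by -0.03 and Psmb7 by -0.22, neither called by limma. Psmb8 minus Psmb5 changed by 0.04 at day 4, with overlapping arrays (exact permutation p 0.7), and by -0.59 at day 7. Psmb9 minus Psmb8 changed by 0.73 and 1.05. Except for the overlap named, every array of one group stood apart from every array of the other, which gives a two-sided exact permutation p of 0.1, the smallest that 3 arrays against 3 allow, and 0.12 after adjustment over 18 such tests, so none could pass 0.05. With the mean of all probe sets, Psmb8 minus Psmb5 changed by 0.16 and -0.35.

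Psmb9 and Tap1, whose starts face away from each other, changed by nearly the same amount at day 4 (0.63 and 0.60) but not at day 7 (0.63 and 0.19). Their difference within arrays changed by 0.04 at day 4 (exact permutation p 0.8) and by 0.44 at day 7 against untreated samples, where the arrays did not overlap (exact permutation p 0.1). With all probe sets averaged, the day 4 change was 0.48. Psmb9 has 1 probe set, while all but 1 of the 4 Tap1 sets lay at or near the lowest value. Averaging therefore shrinks the change of Tap1 alone and cannot check the 0.04. Psmb10 minus Psmb9 changed by -0.67 at day 4, without overlap (exact permutation p 0.1, or 0.12 after adjustment, which cannot pass), and by 0.04 at day 7, where the arrays overlapped (exact permutation p 0.8).

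Nlrc5, which activates class I genes and is itself raised by interferon-gamma in many cell types, had the largest change of the 10 genes. It read 8.11, 7.93 and 7.63 on the untreated arrays, 8.22, 8.23 and 7.73 at day 4 and 7.28, 6.84 and 6.94 at day 7. Every day 7 array lay below every other array, and untreated and day 4 overlapped. At day 7 it fell to 0.547 of its untreated level (difference -0.87, SE 0.18, adjusted p 0.00382) and to 0.485 of its day 4 level (-1.04, SE 0.18, adjusted p 0.00439), after a day 4 difference of 0.17 (adjusted p 0.43). Both day 7 falls were called under all 3 centrings, at -0.72 to -1.84 against untreated samples and -0.67 to -1.40 against day 4, and without any 1 array (adjusted p up to 0.0174 and 0.0221). At day 7 the genes of the class I molecule, H2-K1, H2-D1 and B2m, were not called against untreated samples. Of the medullary epithelium markers, the 7 tested of 9 measured were all called lower at day 7, among them Aire at a difference of -1.97. The list means were 6.08 to 7.03 in untreated samples, 5.98 to 6.44 at day 4 and 5.47 to 5.60 at day 7. All 10 pan-leukocyte and all 13 thymocyte genes were also called lower at day 7, where 22% of all genes were. At day 4, where Nlrc5 was not called and 21.4% of all genes were lower, all of these were called lower too. Of the medullary genes 3 were then lower, among them Aire at -1.32. From day 4 to day 7 the median difference was 1.15 for the pan-leukocyte list, 3.33 for the thymocyte list and -0.88 for the medullary list. The part of any of these lists in the fall of Nlrc5 was not tested.

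**Figure D5:**
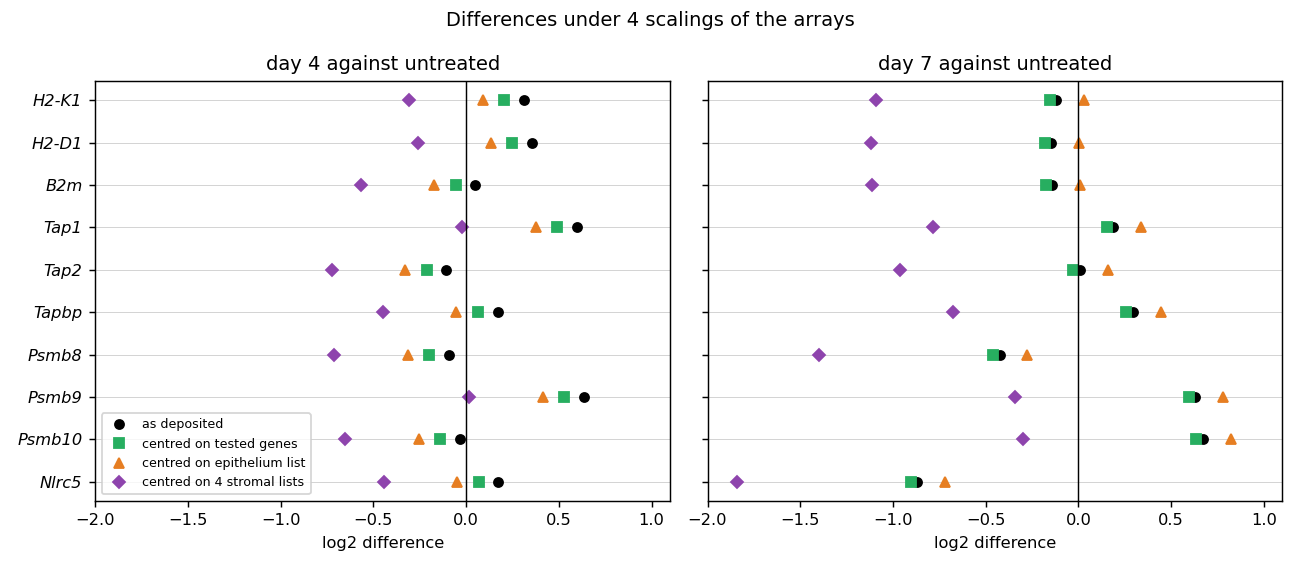
Log2 difference of the 10 genes for day 4 against untreated and day 7 against untreated, with the arrays as deposited and centred on the tested genes, on the epithelium list and on the mean of 4 stromal lists. Nlrc5 and Psmb8 stay below 0 at day 7 under all 4 scalings, Psmb8 without a call on the epithelium list, while the rises of H2-K1, H2-D1 and Tap1 at day 4 and of Tapbp, Psmb9 and Psmb10 at day 7 turn on the 4 stromal lists.

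Other regulators of class I transcription moved in both directions. Of 18 tested, 8 rose and 3 fell at day 4, 3 rose and 4 fell at day 7, and 2 rose and 4 fell at day 7 against day 4. The day 4 counts were near the 41.8% higher and 21.4% lower among all genes tested. At day 7 those shares were 32.1% and 22%, and for day 7 against day 4 they were 9.78% and 17.6%. Nfyb, a subunit of the factor that binds the CCAAT box, fell by 1.503 at day 4 and fell by 0.73 at day 7 (adjusted p 2.26e-05 and 0.00205), and Creb1, which binds CRE sites, fell by 0.72 and 0.54. Ciita, the class II counterpart of Nlrc5, rose by 1.004 and 0.62 (adjusted p 8.75e-05 and 0.00188), and Irf3, a factor of interferon induction, rose by 0.52 at day 4. Under the stromal centring the day 7 rise of Ciita and the day 4 rise of Irf3 turned. Both of the following were chosen after their values were seen. Irf1, a factor that acts at class I promoters, differed by -0.15 at day 4 and rose by 0.54 at day 7, a rise that the same centring turned. Irf7, an interferon-induced factor, rose by 0.67 at day 4 and fell by 0.83 at day 7.

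Interferon receptors and their signalling genes gave 4 rises and 2 falls at day 4 and 4 rises and 1 fall at day 7, of 10 tested, against 41.8% higher and 21.4% lower, and 32.1% and 22%, of all genes. Ifngr1, the ligand-binding chain of the interferon-gamma receptor, fell by 1.14 and 0.74 (adjusted p 7.72e-05 and 0.00135). Ifnar2 and Il10rb, chains of the type I and type III receptors, rose by 0.74 and 0.96 at day 4 and by 0.57 and 0.76 at day 7, rises that turn at day 7 under the stromal centring. Socs3, a feedback inhibitor of cytokine signalling, rose by 1.70 at day 7. Ifng itself was below the level of 4 on all day 4 arrays, at 2.71 to 2.86, against 3.14 to 4.48 in untreated samples and 3.33 to 4.15 at day 7.

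Among 23 interferon-stimulated genes, 11 rose and 4 fell at day 4, 5 rose and 7 fell at day 7, and 1 rose and 9 fell at day 7 against day 4, with median differences of 0.33, -0.03 and -0.30 beside 0.20, 0.09 and -0.10 for all genes. Of all genes, 41.8% rose and 21.4% fell at day 4, 32.1% and 22% at day 7, and 9.78% and 17.6% at day 7 against day 4. Cxcl9, a chemokine gene induced by interferon-gamma, fell by 1.22 at day 4 and fell by 2.03 at day 7. Cxcl10, its relative, read 10.80, 10.83 and 10.32 on the untreated arrays, 9.24, 9.26 and 9.27 at day 4 and 10.30, 10.59 and 10.26 at day 7, a fall of 1.40 at day 4 and a difference of -0.27 (adjusted p 0.161) at day 7. Of the interferon-inducible GTPase genes, Igtp fell by 0.80 and 0.91 and Irgm1 rose by 0.89 and 0.74, the last of which turns under the stromal centring at day 7.

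Of 12 tested genes of peptide trimming and loading outside the 10, 4 rose and 1 fell at day 4, and 1 rose and 1 fell at day 7. Of all genes 41.8% rose and 21.4% fell at day 4, and 32.1% and 22% at day 7. Tpp2, a cytosolic peptidase, fell by 0.84 and 0.68. Lap3 and Npepps, aminopeptidases, rose by 0.54 and 0.33 at day 4, and Tapbpl, a relative of tapasin, rose by 0.37 and 0.28, all of them smaller than the stromal shift and turned by it. Of 9 proteasome activator and assembly genes, 2 rose and 2 fell at day 4 and 2 rose and 1 fell at day 7. Psme1, a subunit of the activator that interferon-gamma raises together with the immunoproteasome, read 9.78, 9.37 and 9.61 at day 4 against 10.41, 10.60 and 10.11 in untreated samples, a fall of 0.79, and it fell by 0.62 at day 7. Psmg4, an assembly chaperone, rose by 0.81 and 0.74, and Psmf1, a proteasome inhibitor, by 0.51 and 0.32, of which only the day 4 rise of Psmg4 keeps its sign under the stromal centring. Psmg2, another chaperone, fell by 0.35 at day 4.

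Class I-like heavy chain genes were called in both directions. Of 7 tested of 18 listed, 3 rose and 2 fell at day 4, and 2 rose and 4 fell at day 7, beside the same shares of all genes. H2-Q2, a nonclassical heavy chain, read 7.56, 7.69 and 7.28 at day 4 against 9.49, 9.15 and 9.75 in untreated samples, a fall of 1.95 (adjusted p 1.82e-05), and it fell by 1.12 at day 7. Fcgrt, the neonatal Fc receptor, and Hfe, a regulator of iron uptake, rose by 1.40 and 1.63 at day 4 and by 0.98 and 1.01 at day 7. Mr1, which presents vitamin metabolites, fell by 0.83 and 0.81. The direction of H2-Q2 opposed that of H2-K1 and H2-D1 at day 4 on their _x_at probe sets, and the sign of its fall held under every centring. The opposition did not, as centring on the 4 stromal lists turned H2-K1 and H2-D1 to the direction of H2-Q2.

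The genes outside the list whose profile over the 9 arrays lay nearest to each of the 10 were found by the root mean square (RMS) distance between profiles centred on their own mean, a description without a test. H2-K1 and H2-D1 were 0.0478 apart, the closest pair among the 10, and both had Fbxo25 (0.0464 and 0.0448) and Prpsap1 (0.0529 and 0.0607) as nearest genes. Psmb9 lay nearest to Snx14 (0.0412) and Krt18 (0.052), a keratin of simple epithelium. Psmb10 lay nearest to Ccnd1, a cyclin gene (0.0775), and Psmb2, a constitutive proteasome subunit (0.1). Tap1 lay nearest to Nfe2l1 (0.0651) and Fbh1 (0.0666), Tap2 to Usp28 (0.096) and Nedd1 (0.117), and Tapbp to Atp5g2 (0.0408) and Tfg (0.0448). B2m lay nearest to Ube2q1 (0.03) and Eef1b2 (0.0357), Psmb8 to Lrp10 (0.0631) and Cep85 (0.0689), and Nlrc5, which had the widest range, to Otud3 (0.116) and Ip6k2 (0.161).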

How the data were processed

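Each array had 1 deposited log2 value for every probe set, and the submitters' processing notes name GCRMA as the tool. GCRMA corrects background by probe sequence, normalizes and summarises the arrays, which can compress low values. No version or setting of it is given in the labels, and base 2 was taken from the range of the values. Of 45101 probe sets 34945 had 1 gene symbol in the platform annotation. A gene was read by its brightest probe set (mean over the 9 arrays), genes at 4 or more on at least 3 arrays were tested, and 7256 dim genes were set aside.

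All 9 arrays entered 1 model with group as its term (limma 3.58.1 lmFit and eBayes, R 4.3.3), with Benjamini-Hochberg adjustment at 0.05 over all 10937 genes, or over 20298 probe sets. The model was checked on simulated data. Differences within arrays used two-sided exact permutation tests. Promoter windows came from RefSeq, and the NF-kappaB motif was shortened to 9 letters after its first matches were seen. Plots used matplotlib 3.10.9 (Python 3.11.15). The number of arrays limits precision, and 0 pairs of arrays were identical.

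The 10 genes, the other pathway lists and the marker lists were chosen with earlier results of these data known. Named outside the 10 were up to 4 genes per pathway list with the smallest adjusted p at day 4 or day 7 against untreated samples, lists of 5 or fewer whole, 2 nearest profiles per gene, and Ptprc, Cd3e, Epcam, Pdgfra and Pecam1. Further genes were named outside this rule, among them Irf1, Irf7, Ifng, Aire, Gzma, Lyz2 and Irf8. The alternatives were the filter, the use of probe sets, the variance model, array weights, quantile normalization, 3 centrings, a fit of 2 groups, a replicate block and leaving out each array.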

Additional observations from a re-analysis of the deposited data

Results flagged for a closer look

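The 56 genes examined here were the 10 genes and others named above, many for small adjusted p or after their values were seen. At day 7 against day 4, 27.3% of all genes tested were called, 9.78% higher and 17.6% lower. For 28 of the 56, the changes from untreated samples at day 7 and day 4 differed by limma (adjusted p under 0.05, n = 3 arrays each). Of the 10 class I and immunoproteasome genes these were H2-D1 (-0.50), H2-K1 (-0.43), Nlrc5 (-1.04), Psmb8 (-0.33), Tap1 (-0.41) and Psmb10 (0.71). With arrays centred on the epithelium list, only Nlrc5 (-0.67) and Psmb10 (1.08) of these 6 were still called, and centred on the 4 stromal lists Psmb10 (0.35) was not.

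Among the other genes of the proteasome, the difference was 0.42 for Psmb11, 0.29 for Psmb5, 0.33 for Psmb6, 0.33 for Psmb7 and 0.34 for Psmg2. It was -0.32 for the peptidase gene Lap3 and 0.84 for H2-Q2. Of the regulators and interferon genes, Ciita differed by -0.38, Irf3 by -0.31, Nfyb by 0.78, Ifngr1 by 0.40, Socs3 by 1.40, Cxcl10 by 1.13 and Cxcl9 by -0.81. Of the class II genes, Ctss differed by -1.14 and H2-Ob by -1.005. For Cxcl10, Nfyb, Ifngr1 and H2-Q2 the day 7 value lay between those of day 4 and untreated samples, whereas Cxcl9, Ctss and H2-Ob were lower at day 7 than at day 4. Of the other genes, Irf1 differed by 0.70, Irf7 by -1.51, Ptprc by 4.87, Cd3e by 1.42, Gzma by 3.06 and Pecam1 by 2.58. Groups of 3 arrays are too small for the outlier test used for larger groups, so it was not run.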

How the results depend on the processing

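Over 654 values of the 10 genes under alternatives, 553 kept their direction and their side of the threshold, 42 lost their call, 15 gained one and 44 turned. Centring on the 4 stromal lists turned H2-K1 (-0.31), H2-D1 (-0.26), B2m (-0.57), Tap1 (-0.0204), Tapbp (-0.45) and Nlrc5 (-0.44) at day 4, Tap1 (-0.78), Tap2 (-0.96), Tapbp (-0.68), Psmb9 (-0.34) and Psmb10 (-0.30) at day 7, and Tap2 (-0.24) and Tapbp (-0.23) at day 7 against day 4. It called 8 of the 10 genes at day 7, where it moved the difference of every gene by -0.97, so that count is not a result about the 10 genes. At day 7 against day 4 it called 5575 of all genes, against 2991 as deposited. Centring on the epithelium list turned B2m (-0.17), Tapbp (-0.052) and Nlrc5 (-0.0478) at day 4, H2-K1 (0.0324), H2-D1 (0.005) and B2m (0.0091) at day 7, and B2m (0.18), Psmb8 (0.0392) and Psmb9 (0.37) at day 7 against day 4. It called 0 of the 10 genes at day 4 by limma (0 at an unadjusted p under 0.05), 3 at day 7 and 2 at day 7 against day 4, where 1905 genes were called in all. For day 4 and day 7 the share of all genes called under it is not given here. Those counts are therefore not read as results about the 10 genes. Centring on the tested genes turned B2m at day 4 (-0.057), Tap2 at day 7 (-0.0276) and Psmb9 at day 7 against day 4 (0.0661). The 2 larger centrings rest on marker lists that themselves changed. Quantile normalization gave -0.0021 for B2m at day 4, and array weights gave -0.20 for Tap2 at day 7. The cause was not tested.

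Without _x_at and _s_at probe sets, H2-K1 had none left and 2 of 9 genes were called at day 4 and 3 at day 7 against day 4, with H2-D1 at -0.22 and 0.0289. Averaging all probe sets of a gene put B2m at -0.0063, Psmb8 at 0.0297, Tap1 at 0.15 and H2-D1 at 0.19 at day 4, and 4 of the 10 genes were called at day 7 against day 4, where 6 were called from the brightest sets. Chosen after seeing the data, single probe sets turned H2-D1 at day 4 (-0.22) and at day 7 against day 4 (0.0289) with 1426324_at, B2m at day 4 (-0.0625), Psmb8 at day 4 (0.15) and day 7 (0.0548), H2-K1 at day 7 (0.28 with 1450534_x_at) and H2-D1 at day 7 (0.0073 with 1450170_x_at and 0.11 with 1451683_x_at). With 1 array left out, 3 to 5, 4 to 5 and 4 to 6 of the 10 genes were called in the 3 comparisons, and 5967 to 6845, 4608 to 6022 and 1741 to 3440 of all genes, the last falling to 1976 without day 4 replicate 1, 1856 without day 4 replicate 2 and 1741 without day 7 replicate 2. Tap2 ranged over -0.26 to 0.0278 at day 4 and -0.14 to 0.14 at day 7, and Psmb9 over -0.0504 to 0.0413 at day 7 against day 4.

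The labels give the groups the same replicate numbers. With the group mean of each gene taken off, arrays of 1 number in different groups correlated at -0.12 to 0.18. Arrays of unlike number did so at -0.29 to 0.21. With groups of 3 arrays these values cannot show whether the samples share more than a number. With the replicate block, 6669, 5588 and 2614 genes and 4, 4 and 5 of the 10 were called. Tapbp at day 7 (0.29, adjusted p 0.0502) and Psmb8 at day 7 against day 4 (-0.33, adjusted p 0.0733) lost their calls. Signals near the lowest of the table limit the 8 dim probe sets.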

Other observations

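The genes of class II presentation, which share interferon-gamma as an inducer with class I, were called in both directions. Of 12 tested, 2 rose and 2 fell at day 4, 2 rose and 3 fell at day 7, and 3 fell at day 7 against day 4, where 0 rose by limma, also at an unadjusted p under 0.05. Of all genes, 41.8% rose and 21.4% fell at day 4, 32.1% and 22% at day 7, and 9.78% and 17.6% at day 7 against day 4. The chain genes H2-Ab1, H2-Aa and H2-Eb1 and the invariant chain gene Cd74, chosen after their values were seen, differed at day 4 by 0.24, -0.00, 0.10 and 0.26 and at day 7 by 0.01, -0.16, -0.20 and -0.07, none of them called. Ctss, the protease that cuts the invariant chain, fell by 0.83 at day 4 and by 1.97 at day 7. H2-Ob, a chain of the modulator of peptide exchange that lies beside Tap2, fell by 0.79 and 1.79. Lgmn, a lysosomal protease, rose by 1.44 and 1.004, and H2-DMa, a chain of the peptide exchange factor, rose by 0.74 and 0.69, a day 7 rise that turns with arrays centred on the 4 stromal lists.

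Other marker lists moved as follows, beside 41.8% higher and 21.4% lower of all genes at day 4 and 32.1% and 22% at day 7. Of the 5 tested macrophage markers 1 rose and 3 fell at day 4, and 1 rose and 3 fell at day 7. Of the 4 tested dendritic cell markers 2 rose and 1 fell at day 4. Both B cell markers tested fell at day 7, as did the only NK marker tested, Gzma. Of 14 epithelium markers 7 rose and 1 fell at day 4, and 6 rose and 5 fell at day 7. Of 9 pericyte markers 4 rose and 2 fell at day 4, and 5 rose at day 7. All 13 tested endothelium markers rose at day 7. Among the single genes used to describe the samples, Epcam differed by -0.11 and -0.40 at day 4 and day 7, and Pdgfra rose by 1.26 and 0.66. Cd3e read the same 5.57 on all 3 day 4 arrays, so its day 4 difference of -3.96 is not an exact size, and it fell by 2.53 at day 7. Pecam1 differed by -1.11 at day 4 (adjusted p 0.0815) and rose by 1.47 at day 7.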
